A study of Mus musculus with 2 samples.

Results

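The regions described here are the CTCF peaks of mouse embryonic stem cells whose midpoint lay within 1000 bp of the transcription start of a protein-coding gene that does not share its promoter with a divergent neighbour. They were chosen by position alone. The peaks are those of the deposited mm9 list that pools both replicates, and the starts are those of GENCODE vM1. A start was left out when a second protein-coding gene on the opposite strand, pointing away, began at most 1000 bp from it. On the 19 autosomes 2207 of 38519 pooled peaks met the rule, a share of 5.73% (95% Clopper-Pearson interval 5.50 to 5.97%). Applied to each replicate's own list, the rule found 2000 of 35612 peaks (5.62%) in replicate 1 and 2040 of 36015 (5.66%) in replicate 2. These peaks are called promoter peaks below.

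The study profiled CTCF by chromatin immunoprecipitation and sequencing (ChIP-seq) in E14TG2a.4, an established male mouse embryonic stem cell line of the 129/Ola strain. There is 1 group with 2 biological replicates, both with an antibody to CTCF, and no genotype or treatment differs between them. A single cultured line was profiled, so the values describe one genotype and one cell state. The lists give no read numbers, so the depth behind each peak is unknown, and intervals on shares cover counting error over peaks or genes only.

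CTCF is a zinc finger protein that binds DNA through a long, asymmetric motif. Cohesin, the ring complex that extrudes chromatin loops, halts at bound CTCF, and the direction of the motif sets from which side it is halted. Most bound sites lie outside promoters, but a part lies in them. There bound CTCF has been linked to contacts with distant enhancers and, in the clustered protocadherin genes, to the choice of promoter.

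To show what was searched for, the motif was learned from the 5000 strongest pooled peaks more than 2000 bp from any coding start, none of which is a promoter peak. The consensus took the most frequent base at each of its 19 positions, and capitals mark the whole motif.

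Learned CTCF consensus, forward strand: TGGCCACCAGAGGGCGCTA

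A site was called where the score reached 13.04 bits, the score reached somewhere in 1% of windows of the same size in flanking sequence. The forward strand is the one richer in G. The following 6 sites are the best motifs of the strongest promoter peaks that held one. They are shown because they carry the highest binding values at single-gene promoters. Each is written 5′ to 3′ on its own forward strand from mm9, with the 19 motif bases in capitals and 5 flanking bases on each side.

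Gm9964, chr11:79109902-79109920, minus strand: aaacaTTGCCAGCAGAGGTCAGGAgaagt
Tnnt1, chr7:4465020-4465038, plus strand: cttcaCGGCCACCAGAGGGCGCAGgaggg
5930416I19Rik, chr6:128309213-128309231, minus strand: accaaCAGCCACTGGAGGGCCCCAaacac
Rasa4, chr5:136580527-136580545, plus strand: aggtgTGGCCTGTGGAGGGCGCTCtgggg
Smpd4, chr16:17618459-17618477, minus strand: agaggTGGCCAGTAGCTGGCGCTGtggag
Wdr37, chr13:8870528-8870546, minus strand: tacttGCGCCACCAGGGGACGCCAtactc

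The site at Tnnt1, the gene of the slow skeletal muscle troponin T, scored 23.39 bits. That at 5930416I19Rik, with nearly the same binding value, scored 15.04 bits. The scores of the other 4 sites were 16.49 bits at Gm9964, 17.24 bits at Rasa4, 16.46 bits at Smpd4 and 18.12 bits at Wdr37, so scores differed widely among peaks of nearly equal enrichment.

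A second set holds the strongest promoter peaks whose best motif lay between 50 and 100 bp upstream of the start. It is shown because motif sites were densest there, as given further on.

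Comtd1, chr14:22668264-22668282, minus strand: gcatgCAGCCACCGGGTGGCGAGAtgttc
Mc1r, chr8:125930878-125930896, minus strand: ccaggCTGCCTCTAGGGGGCAGAGgcagc
Lgi4, chr7:31844261-31844279, plus strand: gatggTGACCACCAGGGGGAGCAGctggc
Pfdn4, chr2:170336643-170336661, minus strand: agccaCGGCCAGCAGGGGGAGCGCtgggt
Fitm2, chr2:163298445-163298463, minus strand: catcaAGGCCACTAGAGGGAGACAcgccc

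Comtd1 and Fitm2 are minus-strand genes and Lgi4 is a plus-strand gene, so in these 3 the motif read in the direction of transcription. At Mc1r and Pfdn4, both plus-strand genes, it read the other way. The 200 bases upstream of the starts of Lgi4 (chr7:31844161-31844360, plus strand) and Mc1r (chr8:125930782-125930981, plus strand) place the site within its promoter. They are written in the direction of transcription and end at the base before the start. Capitals mark the motif, which at Mc1r lies on the other strand.

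Lgi4 upstream: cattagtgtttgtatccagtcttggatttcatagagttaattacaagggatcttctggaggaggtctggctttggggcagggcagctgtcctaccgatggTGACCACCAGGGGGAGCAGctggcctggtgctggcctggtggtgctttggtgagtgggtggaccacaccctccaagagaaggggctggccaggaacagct
Mc1r upstream: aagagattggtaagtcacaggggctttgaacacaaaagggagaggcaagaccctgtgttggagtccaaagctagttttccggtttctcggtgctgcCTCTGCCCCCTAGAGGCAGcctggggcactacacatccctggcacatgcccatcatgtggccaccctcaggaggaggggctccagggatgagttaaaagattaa

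Lgi4 encodes a secreted protein needed for myelination by Schwann cells, and Mc1r the melanocortin receptor of pigment cells. The Lgi4 stretch held 1 CG dinucleotide at 56.5% G and C, and the Mc1r stretch held 2 at 54.5%. Their motif centres lay 91 and 95 bp upstream of the start. The peak at Lgi4 had a fold enrichment, the authors' measure of binding per peak, of 25.3 in the pooled list, 29.6 in replicate 1 and 31.1 in replicate 2. At Mc1r the values were 25.6, 29.0 and 38.0.

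The first question was on which side of the start CTCF was bound. Of the 2207 promoter peaks, 1543 lay upstream of the nearest start and 664 downstream, so that 69.9% were upstream (interval 68.0 to 71.8%). The replicate lists gave 70.4% and 69.8% (70.1 ± 0.456%, mean ± SD, n = 2). Of the sequence within reach of the rule, 50.2% was upstream, 27.3 Mb against 27.1 Mb downstream. Genes on the plus strand (69.6%) and on the minus strand (70.2%) gave nearly the same share. Among the 851 promoter peaks at genes with a single annotated start the share was 72.6% (interval 69.5 to 75.6%). By chromosome it ran from 57.8% on chromosome 14 to 75.9% on chromosome 17, so the excess upstream was seen on each autosome.

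The asymmetry was steepest next to the start. The first 200 bp upstream held 518 midpoints and the first 200 bp downstream 137, a ratio of 3.78, with 3.805 in replicate 1 and 3.32 in replicate 2. Per Mb of promoter sequence the peak density climbed from 35.7 at 800 to 1000 bp upstream to 41.8, 47.2, 67.6 and 84.8 in the successive 200-bp steps toward the start. Immediately past the start it was 22.5, and then 20.4, 23.0, 26.6 and 31.0 out to 1000 bp downstream. The density thus changed by the largest step of the window at the start itself. In absolute terms 297 midpoints lay within 100 bp of a start, 655 within 200 bp and 1346 within 500 bp, and the median distance was 383 bp. The median width was 879 bp, and a peak of that width with its midpoint 200 bp upstream also covers the start, so the midpoint places binding only roughly.

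**Figure D1:**
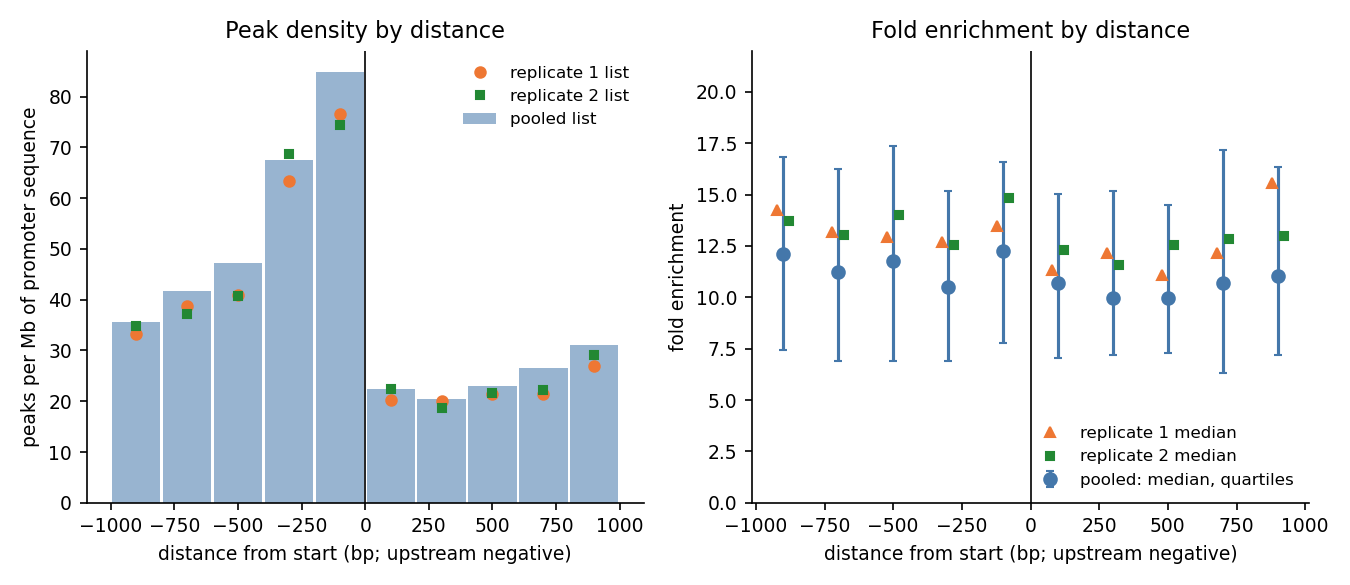
Left, promoter peaks per Mb of sequence in 200-bp steps of signed distance to the start (bp, upstream negative), with bars for the pooled list and points for the replicate lists. Right, fold enrichment in the same steps, with the pooled median and quartiles and the replicate medians. The density is highest in the step ending at the start, at 84.8 peaks per Mb, and falls to 22.5 past it, while the pooled median fold stays between 9.99 and 12.2.

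Where the midpoint fell in the gene followed from its side. Of the upstream midpoints 73.4% lay outside coding genes and 20.2% in an intron, of another transcript or of a neighbouring gene. Of the downstream midpoints 60.7% lay in an intron, 17.8% in an untranslated exon and 16.3% in a coding exon. The 4 midpoints nearest to a start were those of Ppm1h, a protein phosphatase, Pcp4, a calmodulin-binding protein, Athl1, and Stk4, a kinase of the Hippo pathway, all at most 2 bp from it. Their pooled fold enrichments were 11.2, 29.96, 16.7 and 15.5. A further 6 were tied at 3 bp, among them Rasl2-9-ps at 7.03 and Hoxa7 at 25.6. A midpoint on the start therefore came with values from weak to among the strongest. At the edge of the window, Ephb6 and Cacnb1 lay 1000 bp upstream with pooled values of 6.19 and 7.03, and Prkag2 and Cep110, at 1001 bp, were just outside with 6.05 and 14.2.

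The next question was how strongly these peaks were bound. Their fold enrichment had a median of 11.4 when pooled (quartiles 7.17 and 16.2, range 3.04 to 32.4), against 12.2 (7.99 and 17.0) for peaks away from coding promoters. In replicate 1 the medians were 12.9 and 13.99, and in replicate 2 they were 13.1 and 14.1. The ratio of the medians over the 2 replicates, promoter peaks to all other peaks, was 0.928 ± 0.00399 (SD, n = 2). The scale of each list is not given, so promoter peaks were compared with other peaks within a list, and the replicates of a single peak by their ratio relative to the median ratio. The distributions overlapped widely: 46.6% of promoter peaks reached 12.1, the median of all autosomal peaks. Upstream peaks had a median of 11.7 and downstream peaks of 10.6, with 13.2 and 12.4 in replicate 1 and 13.7 and 12.6 in replicate 2. The 69 peaks at divergent promoters only had a median of 10.4.

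The 10 promoter peaks with the highest pooled fold enrichment lay at different genes on 9 chromosomes, 6 upstream and 4 downstream of the start. At Gm9964 the value was 32.4 pooled, 42.5 in replicate 1 and 41.7 in replicate 2; its midpoint lay 459 bp downstream in a coding exon. At Tnnt1 it was 32.2, 40.9 and 44.3, with the midpoint 931 bp downstream in an intron. Both peaks stood near the top of either replicate's promoter peaks, which reached at most 42.5 in replicate 1 and 44.6 in replicate 2.

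The others followed within a narrow range. Spata20 had 31.6 in the pooled list, 42.2 in replicate 1 and 42.3 in replicate 2, from a peak 922 bp upstream. 5930416I19Rik had 31.5, 40.1 and 40.3, from a peak 161 bp downstream. Rasa4, which encodes an activator of the GTPase function of Ras, had 31.0, 35.1 and 42.6. Smpd4, a neutral sphingomyelinase, had 30.7, 34.8 and 36.3. Wdr37 had 30.5, 40.4 and 38.6, and Comtd1 had 30.5, 38.8 and 39.1. Gins4, a subunit of the replicative helicase, had 30.4, 39.6 and 41.4 at 220 bp upstream, and Adsl, the adenylosuccinate lyase of purine synthesis, had 30.4, 37.0 and 39.1 at 234 bp upstream. Of these 10 peaks, 8 had a motif site within 50 bp of the midpoint. Spata20 and Adsl had none in the whole peak, where their best scores were 12.61 and 7.50 bits.

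Agreement between the replicates was measured next. Of the 2207 pooled promoter peaks, 1847 overlapped a peak in both replicate lists (83.7%, interval 82.1 to 85.2%), 128 only one in replicate 1, 142 only one in replicate 2, and 90 one in neither. Of all other autosomal peaks 86.3% were found in both. The difference was small, with a Benjamini-Hochberg adjusted p = 0.00119 in a two-sided Fisher's exact test over peaks, 1 of 4 such tests. Peaks are not replicates, so these p-values cover counting over peaks and not the spread between cultures. Promoter peaks not found in both lists were weak, with a median pooled fold enrichment of 5.35 against 12.8 for those found in both. The 90 found in neither had a median of 4.78.

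Among the 1847 promoter peaks found in both, the log2 ratio of replicate 2 to replicate 1 had an SD of 0.29, the same as the 0.29 of the peaks away from coding promoters. After the median ratio was removed, 94.7% of the pairs lay within 1.5-fold of each other and 0.162% were more than 2-fold apart. Across these peaks, which share their libraries, Spearman's rho was 0.912. The median log2 ratio that was removed was 0.09. On this centred scale the pairs farthest apart with replicate 1 higher were at Usp50 (12.9 and 6.57 in replicates 1 and 2), Agfg1 (12.9 and 6.86) and Ankrd46 (8.98 and 4.86). Those with replicate 2 higher were at Nnmt, the nicotinamide N-methyltransferase gene (6.34 and 13.1), Gabbr1, which encodes a GABA-B receptor subunit (5.28 and 11.1), and Epb4.1l4a (5.54 and 12). All 6 had pooled values of at most 9.57, under the median of the promoter peaks.

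**Figure D2:**
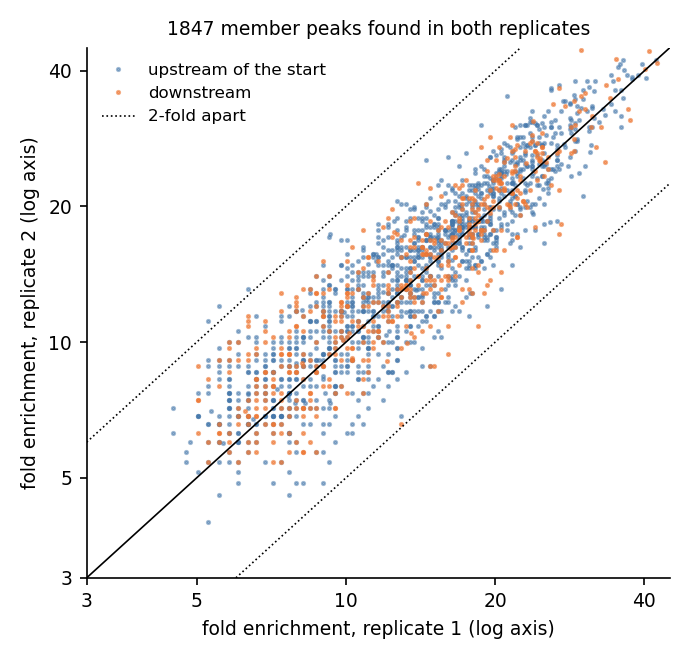
Fold enrichment in replicate 1 against replicate 2 on log axes for the 1847 promoter peaks found in both lists, coloured by side of the start, with no centring, the line of equality and dotted lines at a 2-fold difference. Peaks of both sides lie around the diagonal, and few points reach the dotted lines.

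Promoter peaks held the CTCF motif less often than other peaks. A site lay within 50 bp of the midpoint in 803 of 2207 (36.4%, interval 34.4 to 38.4%), in 38.7% in replicate 1 and in 34.0% in replicate 2. Among peaks elsewhere that had no part in learning the motif the share was 57.8%, a difference with an adjusted p = 1.73e-84 (Fisher's exact test over peaks). The motif itself was learned only from peaks away from coding starts. How the size of the gap depends on that choice was not tested. Over the replicate lists the shares were 36.4 ± 3.31% for promoter peaks and 57.0 ± 3.18% for all other peaks (SD, n = 2), so the gap was far larger than the replicate spread. Of single-gene promoter windows with no peak within 2000 bp, taken at the same distances, 0.960% held a site in the same span.

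Searching the whole peak narrowed the gap without closing it. A site was found in 1553 promoter peaks (70.4%) against 84.9% of peaks away from coding promoters, with 71.4 ± 0.124% over the replicate lists (SD, n = 2). In peak-free promoters a window of 901 bp held a site in 8.93%. The best site lay a median of 43 bp from the midpoint. At the 69 peaks of divergent promoters the share within 50 bp was 34.8%. Its difference from the single-gene promoter peaks had an adjusted p = 0.899 (Fisher's exact test), and with 69 peaks the interval ran from 23.7 to 47.2%. Downstream promoter peaks had a site within 50 bp more often than upstream ones, 40.2% against 34.7% (adjusted p = 0.0211, Fisher's exact test), and this held in replicate 1 (41.7% and 37.4%) and replicate 2 (38.6% and 32.0%). Over the whole peak the order was the other way, 69.0% downstream and 70.97% upstream, with overlapping intervals.

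Peaks without a motif had lower enrichment. The 654 promoter peaks with no site anywhere in the peak (29.6%) had a median pooled fold enrichment of 8.86, with replicate medians of 10.03 and 11.1. The 803 with a site near the midpoint had 12.4, with 13.7 and 14.3. The 750 with a site elsewhere in the peak had 12.8. Of the peaks without a site 76.0% were found in both replicates, against 87.4% and 86.4% of the other 2 sets. Their median width of 835 bp was somewhat below the 903 bp of peaks with a central site, and a narrower peak leaves less sequence to search.

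Seen from the promoter, the chance of a peak followed the quality of its best motif. For each gene the start with the most transcripts was taken, and the best site within 1000 bp was scored. With no site, 433 of 15371 starts (2.82%) had a peak. With a best score of 13.04 to 16 bits the share was 15.9%, from 16 to 18 bits 31.9%, from 18 to 20 bits 38.9%, and from 20 to 22 bits 69.4%. At 22 bits or more it was 75.8% (113 of 149, interval 68.2 to 82.5%). In replicate 1 the first and last of these shares were 2.40% and 73.8%, and in replicate 2 they were 2.51% and 72.5%. The sharpest step was thus between 18 to 20 bits and 20 to 22 bits, and 36 of the 149 starts with the best matches had no peak.

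**Figure D3:**
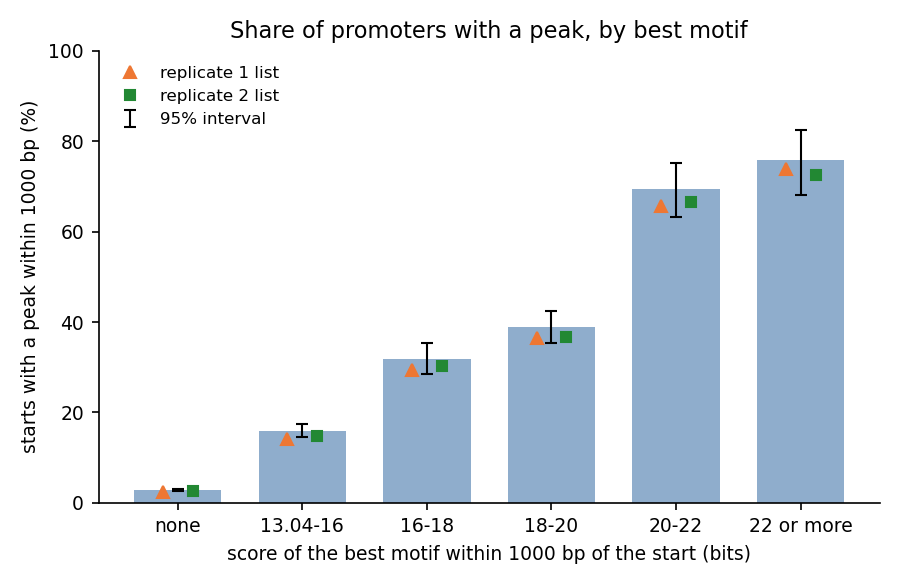
Share of single-gene starts (1 per gene) with a peak midpoint within 1000 bp, by the score in bits of the best motif within 1000 bp of the start; bars give the pooled list with 95% intervals, points the replicate lists. The share climbs from 2.82% with no site to 75.8% at 22 bits or more.

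Single motif sites near starts also lay in peaks more often than sites elsewhere. A site was counted when its centre fell inside a peak, and a peak of about 900 bp can also cover sites that are not themselves bound. The overlap expected from the density of peaks alone was not estimated. Of all motif sites within 1000 bp of a single-gene start 25.3% lay in a pooled peak, against 17.7% of sites more than 2000 bp from any coding start. The share was 31.4% upstream and 17.4% downstream. In the replicate lists it was 28.6 ± 0.189% upstream and 15.8 ± 0.113% downstream (SD, n = 2). The gap held for weak and middling scores and narrowed for the best ones: from 13.04 to 16 bits 14.9% of promoter sites and 7.64% of distant sites lay in a peak, from 20 to 22 bits 68.9% and 54.95%, and at 22 bits or more 76.3% and 73.9%.

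The direction of the motif was then compared with that of the gene, a motif pointing in the direction of transcription when its forward strand is the strand of the gene. Of the 803 promoter peaks with a central site, 443 had the motif pointing in the direction of transcription (55.2%, interval 51.7 to 58.6%), with 55.2% and 54.5% in the replicate lists. With the best site of the whole peak the share was 58.5%. It was 61.6% upstream of the start (674 of 1095, interval 58.6 to 64.4%) and 51.3% downstream (235 of 458, interval 46.6 to 55.98%). Over the replicates the values were 61.8 ± 0.980% upstream and 49.8 ± 1.25% downstream (SD, n = 2). Upstream the interval lay wholly above an even split, and downstream it included one. The difference between the sides was not tested. Motif sites outside peaks also leaned along the gene, with 52.7% of all at promoters (interval 51.3 to 54.0%). This interval overlaps that of the 55.2%. Among single sites upstream the share was 54.2% outside peaks (interval 52.4 to 56.1%) and 60.6% in a peak (interval 57.9 to 63.3%). Downstream it was 50.95% and 50.6%. The upstream lean was thus also present outside peaks, where it was smaller.

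A map of every motif site around the starts showed where sites were densest. Between 50 and 100 bp upstream there were 440 sites, a density of 289 per Mb, against 207 in the 50 bp before it, 218 in the 50 bp after it and 136 in the first 50 bp past the start. Of these 440 sites 193 lay in a peak (43.9%), or 127 per Mb, the highest density of sites in peaks in the map. This stretch was singled out after its values had been seen. Of the 193 sites in a peak 151 pointed in the direction of transcription (78.2%, interval 71.7 to 83.8%). Of the 247 sites outside peaks in the same stretch 151 did so (61.1%, interval 54.7 to 67.2%). With the replicate peak lists the share among sites in a peak was 78.0 ± 0.0948% (SD, n = 2), from 173 and 181 sites. The replicate lists share most of their sites, which bears on how close they are. In 176 promoter peaks the best site lay in this stretch, the 5 printed above among them.

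**Figure D4:**
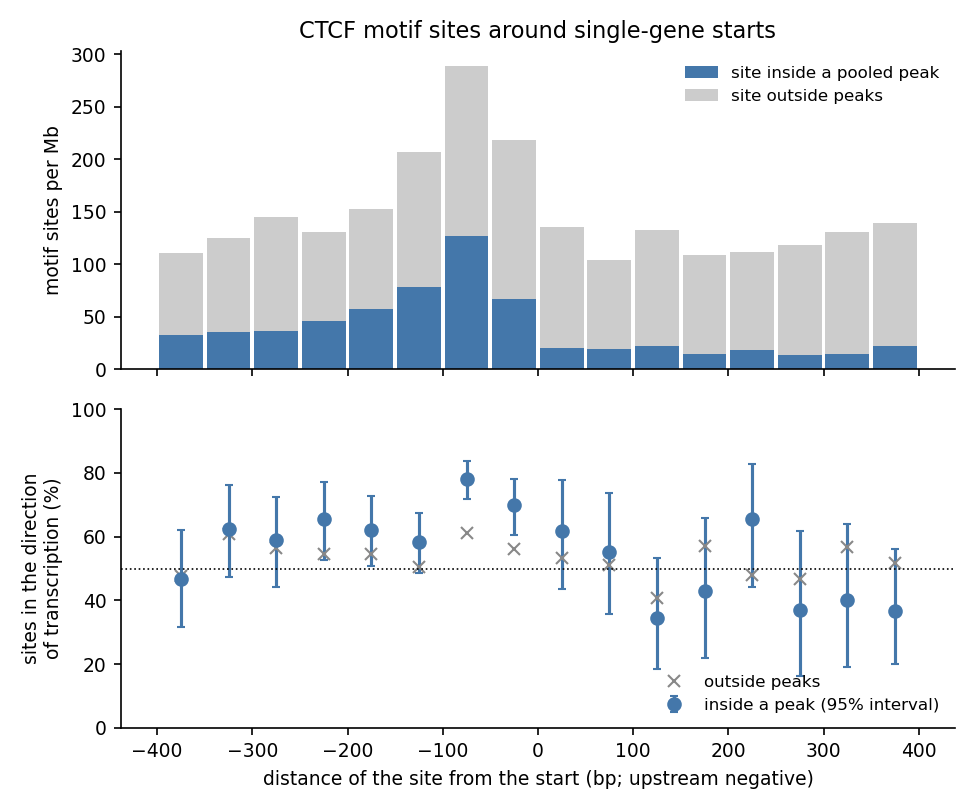
Top, motif sites per Mb in 50-bp steps around single-gene starts, split into sites inside a pooled peak and outside peaks. Bottom, share of sites pointing in the direction of transcription, for sites inside peaks with 95% intervals and for sites outside peaks, with a dotted line at 50%. Both the density, at 289 per Mb, and the share inside peaks, at 78.2%, are highest between 50 and 100 bp upstream.

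Promoter type went with both position and strength. Starts were classed by the sequence within 500 bp. CpG-rich starts had a ratio of observed to expected CG dinucleotides of at least 0.6 and at least 50% G and C, and CpG-poor starts a ratio below 0.4. CpG-rich promoters are typical of widely expressed genes, and CpG-poor ones of genes restricted to certain tissues. Of the promoter peaks, 1046 (47.4%) lay at CpG-rich, 525 at intermediate and 636 at CpG-poor starts. At CpG-rich starts 79.3% were upstream (interval 76.7 to 81.7%), at intermediate ones 66.5%, and at CpG-poor ones 57.4% (interval 53.4 to 61.3%). In the replicate lists the share was 79.9 ± 0.419% at CpG-rich and 57.5 ± 1.15% at CpG-poor starts (SD, n = 2).

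The peaks of CpG-rich promoters had a lower median enrichment and fewer sites. Their median pooled fold enrichment was 10.4 against 12.4 at CpG-poor starts, with 12.1 against 14.3 in replicate 1 and 12.6 against 14.3 in replicate 2. A site lay within 50 bp of the midpoint in 28.6% of them and in 49.2% of those at CpG-poor starts, and in the whole peak in 66.6% and 79.6%. Counted over starts, 11.6% of CpG-rich, 13.7% of intermediate and 4.09% of CpG-poor starts had a peak. Among starts with a site the shares were 30.04%, 36.4% and 19.2%, and among starts without one 4.46%, 5.29% and 0.967%. A peak at a start without a site was thus rarest at CpG-poor starts.

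Short promoter motifs were counted on both strands from 250 bp upstream to 50 bp downstream of 1 start per gene, in 1666 starts with a peak and 18216 without. TATAAA, the TATA box, was in 7.20% of starts with a peak and 15.4% of those without (14.7% of all). Among CpG-rich starts alone the values were 5.72% and 5.61%, so that the gap was absent there. CCGGAAG, bound by ETS factors, was in 14.2% and 8.18% (8.69% of all), and in 21.4% and 16.1% among CpG-rich starts. GGGCGG, the GC box bound by SP1, was in 50.5% and 38.2% (39.2% of all), but among CpG-rich starts in 68.5% and 74.8%, the other way round. CCAAT, bound by NF-Y, was in 32.8% and 36.7% (36.4% of all). GCGCATGC, the NRF1 motif, was in 3.60% and 2.72%, AAGATGG, a YY1 motif, in 6.84% and 6.77%, and CACGTG, the E-box of MYC and USF, in 8.40% and 7.005% (2.797%, 6.78% and 7.12% of all). Among CpG-rich starts the order of these 3 was the other way round, with 5.49% and 5.79%, 6.64% and 6.69%, and 9.95% and 11.1%. CCGGAAG was more frequent and CCAAT less frequent at starts with a peak in both counts, CCAAT with 33.3% and 35.7% among CpG-rich starts. These motifs can overlap each other in G and C rich sequence.

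The genes behind these promoters were described with 23 lists of families and pathways. Over all 19882 coding genes with a single-gene start, 2138 had a peak within 1000 bp of one, or 10.8%. The replicate lists gave 9.76% and 9.93%. The lists were drawn up mainly by symbol, so a few members have other roles, such as Psmc3ip among the proteasome genes and Eif2ak1 among translation factors. No list was tested against the rest.

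After the clustered protocadherins, given below, the highest shares were those of RNA helicases and ribosomal proteins. Of 70 genes of cytosolic ribosomal proteins 22 had a peak (31.4%, interval 20.9 to 43.6%), 19 in replicate 1 and 21 in replicate 2, and of their 21 promoter peaks all 21 lay upstream. At Rpl26 the pooled value was 25.3, with 27.7 and 34.3 in the replicates, 137 bp upstream of the start. At Rps29 it was 22.4, with 27.7 and 27.1. Of 41 RNA helicases of the DDX and DHX families 13 had a peak (31.7%), all 13 upstream, among them Dhx8 with 21.4 (23.2 and 27.4) and Ddx47 with 18.2 (23.5 and 20.0). Over all promoter peaks 69.9% lay upstream, and of those at CpG-rich starts 79.3%. Peaks were counted under the gene of their nearest start, so the numbers of genes and of peaks can differ.

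Of 68 nuclear genes of oxidative phosphorylation 16 had a peak (23.5%), against 18 in replicate 1 and 14 in replicate 2. Ndufv2, a complex I subunit, was the strongest at 22.9 (24.8 and 30.6). Of 27 aminoacyl-tRNA synthetase genes 6 had one (22.2%), with a median pooled value of 18.6, led by Mars at 23.6 (26.7 and 26.9) and Rars at 23.5 (25.9 and 27.7). For mitochondrial ribosomal proteins the count was 9 of 56 (16.1%), for proteasome genes 9 of 43 (20.9%) and for translation factors 6 of 55 (10.9%). These counts are small, and among these 5 lists only that of oxidative phosphorylation had an interval (14.1 to 35.4%) that lay wholly above 10.8%.

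Genes of the cell cycle and of chromosome structure gave shares from 17.5 to 23.8%, with wide intervals whose lower limits were close to the background or below it. For replication and repair the count was 13 of 67 (19.4%, interval 10.8 to 30.9%). Gins4 was at the top, and 4 subunits of the clamp loader, Rfc2, Rfc3, Rfc4 and Rfc5, were among them. For cyclins, kinases and their regulators the count was 10 of 57 (17.5%, interval 8.75 to 29.9%). Of 21 genes of CTCF and cohesin 5 had a peak (23.8%, interval 8.22 to 47.2%). Among them were Smc3, a core cohesin subunit, at 15.3 (15.8 and 20.0), and Nipbl, the cohesin loader, at 11.0 (12.4 and 12). Chromatin modifiers, with 5 of 49 (10.2%), and Zfp zinc finger genes, with 36 of 345 (10.4%), were at the background, as were MAPK pathway kinases with 4 of 36 and kinesins and dyneins with 7 of 63 (both 11.1%). Solute carriers had 46 of 326 (14.1%), led by Slc7a1, a transporter of basic amino acids, at 25.6 (32.0 and 27.1).

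The shares of developmental lists lay on both sides of the background, mostly with intervals that included it, and those of sensory receptors lay far below it. Of 123 lineage transcription factors 6 had a peak (4.88%), among them Foxd2 at 14.1 (13.99 and 16). Of 52 genes of Wnt, Fgf, Bmp and Hedgehog signals 3 had one (5.77%), with Wnt7a at 20.4 (18.8 and 30.3). Of 30 pluripotency genes Tcf7l1 and Pou5f1 had one (6.67%). Pou5f1, which encodes OCT4, had a weak peak in a coding exon, at 7.31 (8.18 and 7.14), and a weaker one upstream of a start. The first lay 107 bp downstream of the nearest annotated start, chr17:35646330. Whether this is the main start of the gene was not examined. Of 38 Hox genes 5 had a peak (13.2%), and that of Hoxa7, 3 bp from the start, reached 25.6 (31.4 and 29.99). Among these developmental lists only lineage transcription factors had an interval that excluded 10.8% (1.81 to 10.3%). The intervals were 1.21 to 15.9% for the signals, 0.818 to 22.1% for pluripotency genes and 4.41 to 28.1% for Hox genes. Olfactory receptors had 12 of 1106 (1.08%), of which 2 lay upstream. No peak was found at 320 vomeronasal receptors (upper limit 1.15%) or at 51 keratins (upper limit 6.98%). The share and the side depend on the annotated starts, and how well these are placed at receptor genes was not examined.

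Most genes had a single promoter peak. Of the 2099 genes nearest to one, 95 had more than 1 and 3 had more than 2, namely the entries Pcdha11 with 8, Pcdhgc5 with 6 and Plec with 5. Clustered protocadherins, cell adhesion proteins of neurons, had a peak at 23 of 24 genes with a single-gene start, with 35 promoter peaks in all. Most of these genes belong to the beta cluster. A motif site was found anywhere in the peak in 14 of these 35 (40%), against 70.4% of all promoter peaks. Under the entry Pcdha11, 7 peaks were between 1494 and 1736 bp wide, against the median of 879 bp, and had pooled values from 7.74 to 17.7. Their midpoints lay from 102 bp upstream to 225 bp downstream of a start. A motif site was found in 6 of these 7, pointing along the gene in each, and in 4 of them its centre lay 462 to 465 bp downstream of the start. The 6 peaks under Pcdhgc5 were 906 to 1088 bp wide with pooled values from 12.8 to 23.6, and the 1 with a site had it 241 bp downstream. Plec, which encodes the cytoskeletal linker plectin, had 4 peaks downstream and 1 upstream of its alternative starts, from 3.94 to 18.01, the lowest found in neither replicate list.

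The authors also deposited lists on mm10 with a summit for each peak, and these were set against RefSeq starts, with no coordinates converted. Of 42335 autosomal summits in the authors' conservative set 1673 (3.95%) lay within 1000 bp of a single-gene RefSeq start, which were 18436 in number. Upstream lay 73.6% of them (interval 71.4 to 75.7%), and the first 200 bp held 517 summits upstream and 81 downstream, a ratio of 6.38. The mm10 values differ from the mm9 ones in peak list, starts and the use of a summit at once, and the part of each was not tested. The median signal was 68.2 at promoters and 78.8 elsewhere, in the same order as the mm9 fold enrichment. Between the replicates the log2 signal ratio had an SD of 0.45 over 1588 promoter summits.

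Genes with a promoter peak on mm9 mostly had a summit on mm10 where they could be matched by symbol. Of the 2138 genes with a promoter peak on mm9, 1419 had a single-gene RefSeq start of the same symbol, and 1094 of these (77.1%) had a conservative summit. Of 11313 matched genes without a peak 262 (2.32%) had one. Of 579 summits from 230 bp upstream to 30 bp downstream of a start, 340 had a motif in the 300-bp RefSeq promoter sequence (58.7%). The motif centre lay a median of 21.5 bp from the summit (quartiles 7 and 43 bp). In 243 of the 340 the motif pointed in the direction of transcription (71.5%, interval 66.4 to 76.2%). The score threshold was set on shorter windows, and no background rate was taken for either share in the 300-bp sequences. The mm10 lists come from the same 2 libraries, so these values are a second processing and not a further replicate.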

How the data were processed

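The authors deposited mm9 lists of CTCF ChIP-seq peaks for each of 2 biological replicates and for both pooled, and, per the labels, mm10 lists prepared for IDR, a check of reproducibility between replicates. In the deposited mm9 lists the fold enrichment of each peak is a ratio whose exact scale is not stated, and a −log10 p value stands beside it. In the deposited mm10 lists each peak has a signal of unstated scale and a summit position. No aligner, peak caller or read depth is named in the labels or file headers.

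Midpoints were assigned to the nearest start of a protein-coding transcript (GENCODE vM1, NCBIM37, which is mm9), on 19 autosomes. Of 44018 coding starts 3859 were in divergent pairs, and 20 promoter peaks also lay within 1000 bp of such a start. Pooled and replicate peaks were matched by an overlap of at least 1 base. The motif of 19 bp was learned by expectation maximisation from the most enriched word of 8 bases, and the threshold came from 73574 flanking windows 2000 bp beyond peak edges. mm10 starts came from RefSeq promoter sequences (GRCm38.p6), matched by symbol. Shares have 95% Clopper-Pearson intervals, and 4 two-sided Fisher's exact tests were adjusted together. Genes were named by rank: the 10 strongest peaks, up to 3 per list, 3 per direction of replicate difference, those nearest the start and the window's edges, and genes with most peaks. Alternatives changed the window, the starts, the pairing limit, the peak list, the overlap and the motif search. Tools were Python 3.11.15 with numpy 2.4.6, pandas 2.3.3, scipy 1.17.1, numba 0.67.0 and statsmodels 0.14.6, and the motif learning, start assignment, divergent pairing and Fisher's test were tested on simulated data. The regions and lists were chosen with earlier results of these data known. The pooled mm10 list and the optimal IDR set were not used here. A gene and a site that the naming rule selects are not reported here.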

Additional observations from a re-analysis of the deposited data

How the results depend on the processing

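The upstream share stayed above 50% under all 14 alternatives: 9 left it within its interval, while it was 76.3% with a window of 500 bp, 65.4% with 2000 bp, 66.3% with starts of all transcripts of coding genes, 73.4% with gene 5′ ends only, and 72.6% for genes with 1 start (chosen after seeing the data, as was leaving out the clustered protocadherins). The number of promoter peaks was 1346 and 3663 with windows of 500 and 2000 bp and 1029 in the peaks at or above the median fold enrichment; the other 9 alternatives left it within 1.5 times of 2207. The share of genes with a peak was 6.64% and 17.0% with these windows, 13.1% with all transcripts, 9.01% with gene ends, 5.21% in the stronger peaks, and 9.76 to 9.93% with 1 replicate's list. The median fold enrichment was 11.7 with 2000 bp and with all transcripts, 16.5 in these stronger peaks by construction, and 12.9 to 13.1 in single replicates.

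The share with a motif was 52.7%, 63.6% and 70.4% within 100 bp, 200 bp and the whole peak, 13.3% and 51.1% at thresholds that 0.1% and 5% of flanks reach, 40.6% in the stronger peaks, and 34.0 to 38.7% in single replicates. The difference from other peaks kept its sign and its side of the threshold in all 9 alternatives, from -21.6 to -13.8 percentage points, as did the lower share found in both replicates in 2. The share of motifs along the gene, which had no test, stayed within its interval in 3. Read depth could not be weighed, since the lists hold no read numbers. Peaks of about 900 bp limit where a midpoint can place a site. No paired analysis was possible because there is 1 group.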
